A study of Homo sapiens with 4 samples.

Results

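The genes that sense foreign or misplaced nucleic acid, and the interferon-stimulated genes that act downstream of them, were examined in HEK293T cells edited to knock out MORC2 (MORC2 KO) and in wild-type (WT) HEK293T cells. The set was a list of 54 gene symbols, looked up by Entrez identifier among the 28775 genes of the count table, and 54 of the 54 were present. It held 10 sensors and adaptors, 5 transcription factors and 39 effectors. HEK293T is a human embryonic kidney line that carries the adenovirus E1 region and the SV40 large T antigen. MORC2 is an ATPase of the MORC family that works with the HUSH complex to silence genes and mobile elements.

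RNA with a poly-A tail was sequenced from 2 MORC2 KO and 2 WT samples, with no treatment, infection or added interferon named for either group. Each MORC2 KO sample was a population edited with its own guide RNA and Cas9 protein, guide 1 in replicate 1 and guide 2 in replicate 2. These were bulk populations rather than single clones, so each held a mixture of edited alleles. Whether the WT cells were electroporated is not given in the sources used here, so electroporation and genotype cannot be told apart, and the electroporation step of the methods names HEK293 rather than HEK293T cells. The 2 MORC2 KO replicates differ in their guide, so guide and replicate cannot be told apart either.

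Cells detect double-stranded RNA through RIG-I (gene RIGI), MDA5 (IFIH1) and TLR3, and cytosolic DNA through cGAS (CGAS). RIG-I and MDA5 signal through MAVS and cGAS through STING (STING1) to IRF3, which turns on type I interferon. Secreted interferon acts on its receptor, and a complex containing STAT2 and IRF9 then binds the interferon-stimulated response element in the promoters of genes such as the IFIT family, ISG15, MX1 and the OAS genes.

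The libraries held 53970043 to 64312514 counted read pairs. MORC2 itself had 5131 and 4669 counts in WT replicates 1 and 2, against 3064 and 3637 in MORC2 KO replicates 1 and 2, a log2 fold change of -0.71 (SE 0.06, adjusted p = 0.000137 from edgeR's quasi-likelihood fit, adjusted over all genes tested by Benjamini and Hochberg's method). Its exons overlap the antisense gene MORC2-AS1 over 23.3% of their length. Counting took no account of strand and left out pairs that lay over both genes. MORC2-AS1 held 4 to 11 counts per library, which do not measure the shared part. The 9 genes taken as markers of HEK293T, VIM and INA among them, passed the filter on low counts, and by edgeR 0 of the 9 were called. At an unadjusted p under 0.05, 1 was higher and 0 lower, against 8.14% and 6.17% of all genes tested. The leukocyte markers PTPRC and CD3E were at 0 or 1 counts in each library. Between the 2 MORC2 KO libraries the squared differences in counts were 17.6 times those of sampling noise (chi-square per degree of freedom). Between the 2 WT libraries this ratio was 6.86. Genes with many counts weigh most in it. The median absolute difference over all genes tested was 0.12 in log2 CPM between the MORC2 KO libraries and 0.08 between the WT libraries.

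Of the 54 genes, 44 passed edgeR's filter on low counts and were tested among 16675 genes in all, and 1 rose in MORC2 KO cells: IFIT5, an RNA-binding member of the IFIT family. No gene of the set fell. The share that rose, 1 of 44, stands against 0.588% of all genes tested that were called higher (98 genes), and the 0 of 44 that fell against 0.03% called lower (5 genes; 191 higher and 110 lower with offsets for GC content and length). A call here is an adjusted p under 0.05 in edgeR. The DESeq2 fit also called 1 gene of the set higher and 0 lower. It gave no adjusted p for some genes with few counts and so could not call these. DHX58, TLR3, CGAS, STING1, IRF7, RSAD2 and UBE2L6 were among them. At an unadjusted p under 0.05, edgeR gave 5 of the 44 higher (IFIT5, IFIT1, IRF9, STAT2 and IFIT2) against 8.14% of all genes, and 1 lower (USP18) against 6.17%. The fold changes of the 44 had a median of 0.04 on the log2 scale and ran from -0.60 to 0.84, beside a median of 0.01 over all genes tested. As these are bulk samples, a change in the share of cells that express a gene and a change of its RNA per cell cannot be told apart.

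The call count of the set differed most in the fit without MORC2 KO replicate 1, though IFIT5 was called in every fit. Without that library, 6 genes of 45 tested were higher (IFIT1, IFIT2, IFIT3, IFIT5, SAMD9 and STAT2) and 2 were lower (B2M and USP18). That fit leaves 1 sample in the MORC2 KO group, assumed to vary like the others, and it called 8.16% of all genes higher and 12.4% lower. A fit that pairs MORC2 KO replicate 1 with WT replicate 2 and the reverse, added after the data were seen, gave 3 of 44 higher (IFIT1, IFIT2 and IFIT5) against 5.42% of all genes, and 1 lower (USP18) against 4.85%.

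**Figure D1:**
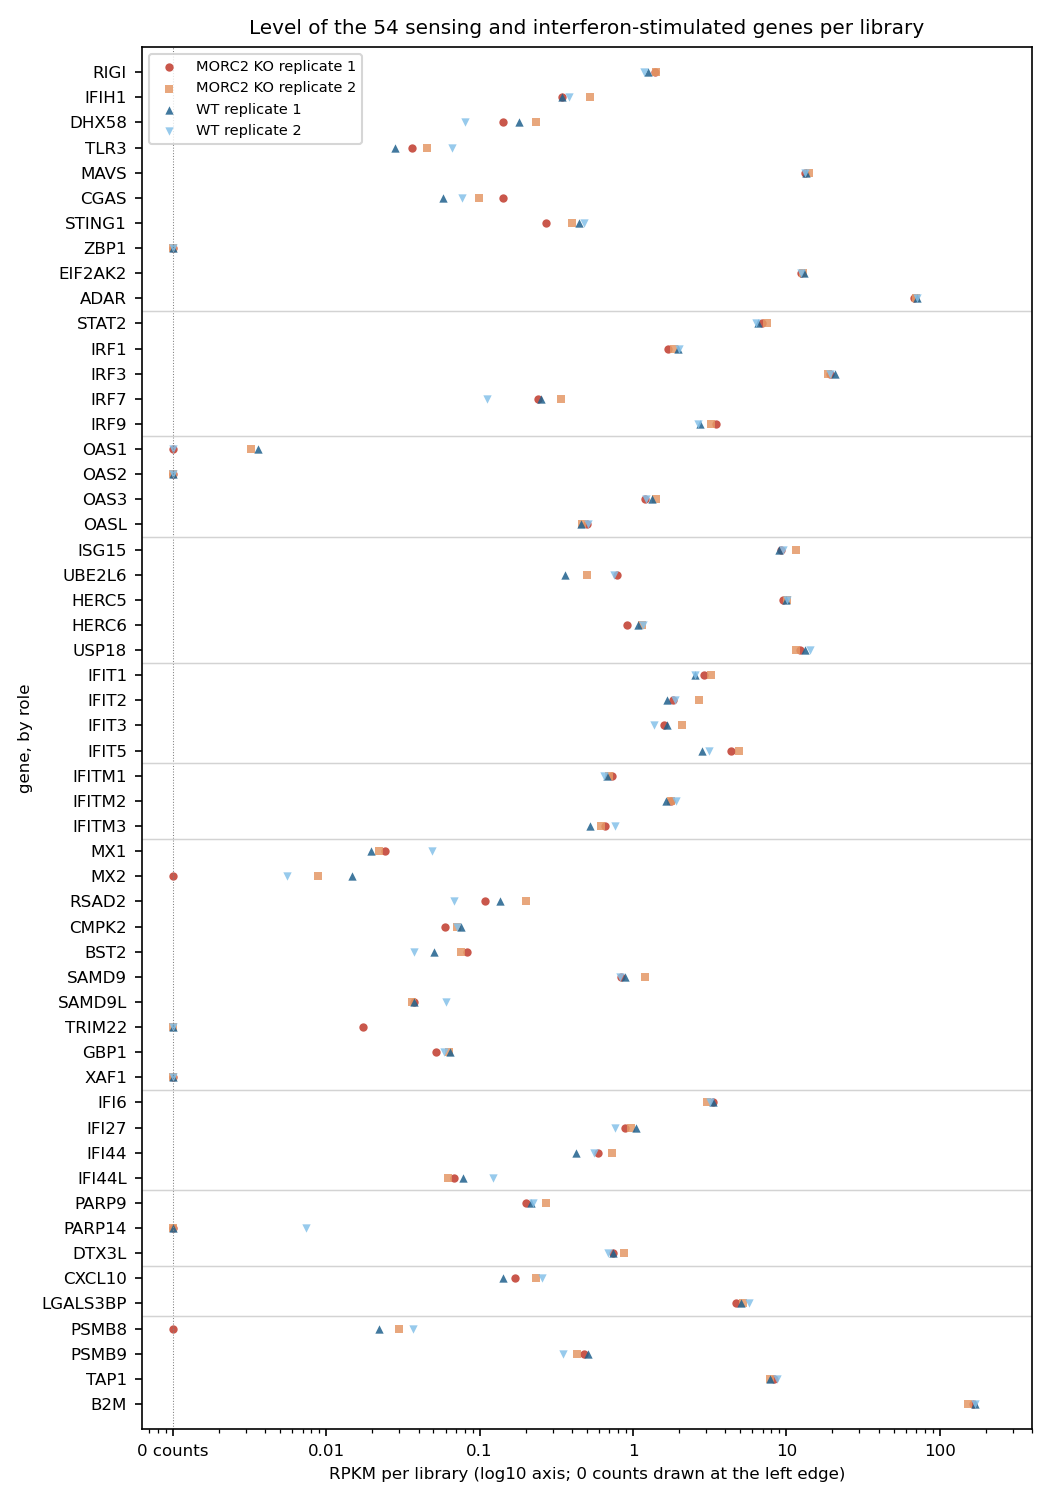
Levels of the 54 genes in each of the 4 libraries, one gene per line and grouped by role, as RPKM (CPM, the counts per 1000000 of the TMM-corrected library size, divided by the gene's exonic length in kb) on a log axis. Circles and squares stand for MORC2 KO replicates 1 and 2, upward and downward triangles for WT replicates 1 and 2, and libraries with 0 counts are drawn at the left edge. B2M (mean 165 RPKM) and ADAR (mean 70.0 RPKM) lie far to the right, and most points of a gene lie close together next to the distance between genes.

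Before any comparison of genotypes, the genes of the set stood at a low level as a group, with exceptions such as ADAR and B2M. The levels below do not cover the pathway genes outside the set. Levels between genes are given as RPKM, which divides by gene length. The median of the 44 tested genes was 1.01 RPKM, against 4.83 RPKM over all genes tested. An RPKM of at least 1 was reached by 22 of the 44, against 72.2% of all genes, and an RPKM of at least 10 by 6 of the 44, against 35.7%. The plot of levels by gene shows the spread.

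The 10 untested genes had at most 9 counts in any library. They included OAS1 and OAS2, which make the second messenger that activates RNase L, the antiviral GTPases MX1 and MX2, the virion tether BST2, and the immunoproteasome subunit PSMB8. OAS2, XAF1 and the Z-form nucleic acid sensor ZBP1 had 0 counts in every library. A limit of 3 counts corresponds to 0.0454 to 0.0564 CPM in these libraries, so 0 counts allow a level up to that. The limit covers counting error only.

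Among the sensors and adaptors, 9 of 10 were tested, and by edgeR and by DESeq2 0 were called in either direction. DESeq2 gave no adjusted p for DHX58, TLR3, CGAS and STING1, which had few counts, so it could not call them. By edgeR 0 were higher and 0 lower at an unadjusted p under 0.05, against 8.14% and 6.17% of all genes. The median log2 fold change of the 9 was 0.04. ADAR, MAVS and EIF2AK2 were the best counted of them, with narrow errors. ADAR, which edits adenosine to inosine in double-stranded RNA and so hides it from MDA5, was the highest at 70.0 RPKM, above 94.4% of all genes tested. Its level was 478 and 495 CPM in MORC2 KO and 500 and 504 CPM in WT. Both MORC2 KO values were lower, by a log2 fold change of -0.04 (SE 0.06, adjusted p = 0.776 by edgeR).

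MAVS, the mitochondrial adaptor of RIG-I and MDA5, averaged 13.5 RPKM, with 156 and 167 CPM in MORC2 KO and 158 and 157 CPM in WT. The WT values lay between the MORC2 KO ones (log2 fold change 0.04, SE 0.06, adjusted p = 0.814 by edgeR). EIF2AK2 encodes PKR, the kinase that stops translation when it binds double-stranded RNA. It averaged 12.7 RPKM, and its 128 and 130 CPM in MORC2 KO overlapped with 133 and 126 CPM in WT (log2 fold change -0.01, SE 0.06, adjusted p = 0.969 by edgeR). With an SE of 0.06 each, these genes were measured more precisely than IFIT5 below.

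The inducible RNA sensors were lower and less precisely measured. RIGI had 388 and 435 counts in the edited MORC2 KO cells and 346 and 292 in WT cells, that is 6.49 and 6.58 CPM against 5.81 and 5.49 CPM. Both MORC2 KO values stood above both WT values, but the log2 fold change of 0.21 (SE 0.11) did not pass (adjusted p = 0.409 by edgeR). IFIH1 had 74 and 125 counts in MORC2 KO and 73 and 73 in WT. The first MORC2 KO replicate was thus at the WT level and the second above it (log2 fold change 0.28, SE 0.24, adjusted p = 0.618 by edgeR), so that its difference was 0.53 without replicate 1 and -0.07 without replicate 2.

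DHX58 encodes LGP2, a RIG-I relative that lacks the signalling domains. It had 22 and 40 counts in MORC2 KO and 28 and 11 in WT, so the groups overlapped. TLR3, the endosomal double-stranded RNA receptor, had 13 and 18 counts in MORC2 KO and 10 and 21 in WT, again with overlap. The log2 fold change of DHX58, 0.51 (SE 0.43), ran from 0.06 without WT replicate 2 to 1.23 without WT replicate 1. That of TLR3, -0.17 (SE 0.49), was smaller than its error and took either sign, from -0.68 without WT replicate 1 to 0.54 without WT replicate 2.

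Both genes of the DNA-sensing arm were low at the RNA level. CGAS averaged 0.0936 RPKM, above 4.82% of all genes tested, with 27 and 21 counts in MORC2 KO and 11 and 13 in WT. Both MORC2 KO values exceeded both WT values, and the log2 fold change of 0.84 was the largest of the 44, yet with an SE of 0.43 it did not pass (adjusted p = 0.388 by edgeR). STING1 averaged 0.396 RPKM, with 35 and 57 counts in MORC2 KO and 57 and 55 in WT. After scaling to library size these were 0.585 and 0.863 CPM against 0.958 and 1.03 CPM, so both MORC2 KO values were lower (log2 fold change -0.45, SE 0.28, adjusted p = 0.471 by edgeR). The STING1 difference was -0.22 without MORC2 KO replicate 1 and -0.76 without replicate 2.

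The 5 transcription factors had a median log2 fold change of 0.16, and by edgeR and by DESeq2 0 of the 5 were called. DESeq2 gave no adjusted p for IRF7, so it could not call that gene. By edgeR 2 were higher and 0 lower at an unadjusted p under 0.05, against 8.14% and 6.17% of all genes. IRF9 and STAT2, which together carry the interferon signal to the response element, had the lowest p values of the 5. IRF9 had 369 and 381 counts in the MORC2 KO samples against 290 and 252 in WT, which is 6.17 and 5.77 CPM against 4.87 and 4.73 CPM. The groups did not overlap (log2 fold change 0.31, SE 0.12, unadjusted p = 0.0213, adjusted p = 0.276 by edgeR). STAT2 stood at 30.6 and 32.8 CPM in MORC2 KO and 28.7 and 28.0 CPM in WT, also with no overlap but with a smaller difference (log2 fold change 0.16, SE 0.07, unadjusted p = 0.03, adjusted p = 0.307 by edgeR). Without MORC2 KO replicate 1 that of STAT2 was 0.20, and without replicate 2 it was 0.11.

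IRF3, which is activated by phosphorylation rather than by its RNA level, averaged 19.5 RPKM, the highest of the 5, and differed by a log2 fold change of -0.08 (SE 0.06, adjusted p = 0.59 by edgeR). BCL2L12 overlaps 18.8% of its exonic length on the other strand. IRF1, a short-lived factor induced by interferon and by NF-kappaB, stood at 7.24 and 7.95 CPM in MORC2 KO and 8.39 and 8.57 CPM in WT (log2 fold change -0.16, SE 0.10, adjusted p = 0.495 by edgeR). IRF7, itself interferon-induced, had 29 and 45 counts in MORC2 KO and 30 and 12 in WT. Its groups overlapped, and its log2 fold change of 0.66 had an SE of 0.40 (adjusted p = 0.467 by edgeR). It ran from 0.22 without WT replicate 2 to 1.37 without WT replicate 1.

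Of the 39 effectors 30 were tested, with a median log2 fold change of 0.03. The IFIT genes encode proteins that bind viral RNA and block its translation. Among the effector families with 3 or more tested genes theirs had the highest median, 0.32, with 4 of 4 genes above 0. IFIT5 lies on chromosome 10 (T2T-CHM13v2.0, chr10:90298411-90304831, plus strand, 2 exons). It had 1041 and 1307 counts in the edited MORC2 KO cells and 675 and 670 in WT cells, that is 17.4 and 19.8 CPM against 11.3 and 12.6 CPM.

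IFIT5 thus averaged 18.6 ± 1.68 CPM in MORC2 KO and 11.97 ± 0.88 CPM in WT (SD, n = 2 each), with every MORC2 KO value above every WT value. The log2 fold change was 0.64 (SE 0.09, adjusted p = 0.00523 by edgeR). Leaving out any 1 library gave 0.54 to 0.71. The alternatives in scaling, filter, tool and terms gave 0.58 to 0.68, with an adjusted p of at most 0.00704.

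IFIT1, the best known of the family, recognises RNA caps that lack methylation. It stood at 13.4 and 15.0 CPM in MORC2 KO and at 11.8 CPM in both WT libraries. The groups did not overlap, but the log2 fold change of 0.27 (SE 0.09) did not pass after adjustment (unadjusted p = 0.00983, adjusted p = 0.229 by edgeR). Without MORC2 KO replicate 1 it was 0.33, and without replicate 2 it was 0.19.

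IFIT2, which binds AU-rich RNA, had 370 and 605 counts in the edited MORC2 KO cells and 336 and 341 in WT cells, that is 6.19 and 9.16 CPM against 5.65 and 6.41 CPM. The second MORC2 KO replicate stood above the rest and the first lay within the WT range (log2 fold change 0.35, SE 0.16, unadjusted p = 0.0477, adjusted p = 0.343 by edgeR). Without MORC2 KO replicate 1 the difference was 0.59, and without replicate 2 it was 0.04. IFIT3, which stabilises IFIT1, had 248 and 361 counts in MORC2 KO and 258 and 191 in WT, with the same replicate highest (log2 fold change 0.28, SE 0.16, adjusted p = 0.443 by edgeR). Without MORC2 KO replicate 1 the difference of IFIT3 was 0.45.

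**Figure D2:**
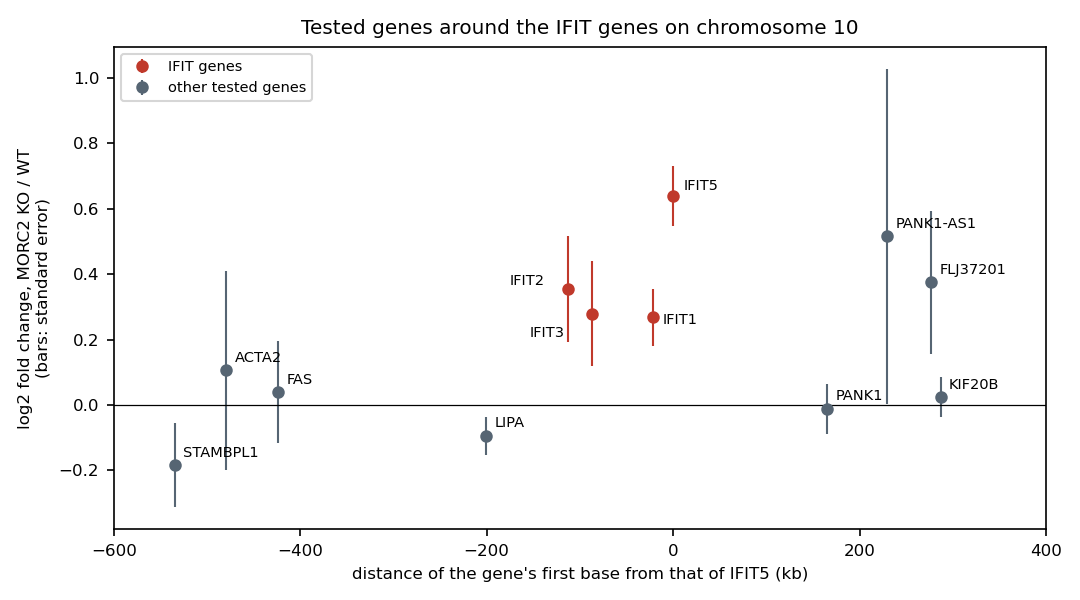
Log2 fold change, MORC2 KO over WT, of the tested genes around the IFIT cluster, against the distance in kb of each gene's first base from that of IFIT5. Points are edgeR estimates and bars their standard errors. IFIT2, IFIT3, IFIT1 and IFIT5 lie between 0.27 and 0.64, and LIPA, PANK1 and KIF20B on either side lie within 0.1 of 0.

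The 4 IFIT genes stand next to each other, all on the plus strand, with IFIT2 starting 112 kb, IFIT3 86.5 kb and IFIT1 21.9 kb before IFIT5. Their neighbours with the most counts, LIPA, PANK1 and KIF20B, stood close to 0, a comparison chosen after the IFIT5 value was seen. STAMBPL1, farther off with 282 to 294 counts, had -0.18 (SE 0.13), both MORC2 KO values below both WT values. FAS had 0.04 (SE 0.16). The lysosomal lipase gene LIPA, on one side, had a log2 fold change of -0.09 (SE 0.06), and the kinesin gene KIF20B, on the other, 0.02 (SE 0.06). PANK1-AS1 (0.52, SE 0.51) and FLJ37201 (0.38, SE 0.22) had few counts and wide errors. IFIT1B, the family copy inside the cluster, had 0 counts in every library. The plot of the cluster shows these values by distance.

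The promoters of the set were searched for the site that the STAT2 and IRF9 complex binds. In 300-base windows, from 250 bases before to 50 bases after the start site, the core of the response element was searched on either strand as GAAA, 2 bases of any kind and GAAA again. On the other strand this reads TTTC, 2 bases and TTTC. It was present in 32 of the 56 promoters of the set (57.1%), and in 1255 of 35116 promoters overall (3.57%). Promoters of the same gene can hold the same match, as in IFI27 and IFI44. The set was listed as sensing and interferon-stimulated genes, so its high share follows from how it was chosen. This share does not bear on MORC2. By gene, 28 of the 41 members with a promoter in the RefSeq table had the core, against 1195 of 27305 genes overall (4.38%). The core was found in 29 of 45 effector promoters (64.4%), 3 of 8 of sensors and adaptors (37.5%) and 0 of 3 of transcription factors. CGAS, DHX58, STING1, IRF3 and IRF7 had no promoter in that table, so they were not searched. PARP9 and DTX3L, which point away from each other, share the same match.

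The windows below are from RefSeq promoters on GRCh38.p14, printed 5′ to 3′ on the gene's strand with the match in capitals. They are shown because IFIT5 is the gene that rose, and IFIT1, IFIT3 and ISG15 hold the same core. For IFIT5 all matches are printed, but for IFIT1, IFIT3 and ISG15 not all. Matches left out begin at -103 in IFIT1, at -156, -94 and -51 in IFIT3 and at -107 in ISG15. The IFIT5 windows are at chr10:89414513-89414542, chr10:89414539-89414568 and chr10:89414554-89414583, plus strand, and overlap in part. Their matches begin at -45, -19 and -4 from the start site.
IFIT5 at -45: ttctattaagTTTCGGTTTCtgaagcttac
IFIT5 at -19: ttacgtttagTTTCGATTTCttaagtttca
IFIT5 at -4: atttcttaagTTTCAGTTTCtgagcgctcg
IFIT1 (chr10:89392497-89392526, plus strand): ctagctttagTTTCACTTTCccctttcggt
IFIT3 (chr10:89327865-89327894, plus strand): tttaaattagTTTCACTTTCcagtttcctc
ISG15 (chr1:1013374-1013403, plus strand): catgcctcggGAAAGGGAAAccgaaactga

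The fold changes were then set beside the presence of the core. The 24 tested genes with it had a median log2 fold change of 0.04, with 14 above 0. The 11 without it had a median of 0.04, with 6 above 0. By library, the median difference from the WT mean in log2 CPM was -0.01 in MORC2 KO replicate 1 both with and without the core, and in replicate 2 it was 0.13 with and 0.02 without. Replicate 2 exceeded replicate 1 in 18 of the 24 and in 7 of the 11. These are descriptions, with no test between the groups of genes. The remaining tested genes, IFIT2 among them, had no promoter in the table.

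The ISG15 group holds the ubiquitin-like modifier ISG15, its conjugating enzymes and its protease USP18, which also damps interferon receptor signalling. By edgeR and by DESeq2 0 of its 5 tested genes were called, but DESeq2 gave no adjusted p for UBE2L6 and could not call it. By edgeR 0 were higher and 1 lower at an unadjusted p under 0.05, against 8.14% and 6.17% of all genes. ISG15 had 354 and 486 counts in MORC2 KO and 339 and 324 in WT. Replicate 2 of MORC2 KO was the highest and replicate 1 lay between the WT values after scaling (log2 fold change 0.18, SE 0.13, adjusted p = 0.546 by edgeR). Without replicate 1 the difference was 0.31 and without replicate 2 it was 0.01.

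USP18 stood at 22.8 and 21.5 CPM in MORC2 KO and 24.6 and 26.4 CPM in WT. The groups did not overlap, and the log2 fold change of -0.20 (SE 0.07) did not pass after adjustment (unadjusted p = 0.0147, adjusted p = 0.256 by edgeR). Without MORC2 KO replicate 1 it was -0.26, and without replicate 2 it was -0.16. HERC5, the main ligase for ISG15, averaged 9.93 RPKM and differed by -0.03 (SE 0.06). UBE2L6, its conjugating enzyme, had 61 and 43 counts in MORC2 KO and 28 and 52 in WT, with overlap. Its log2 fold change of 0.21 (SE 0.36) took either sign, from -0.23 without WT replicate 1 to 0.82 without WT replicate 2.

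Of the other antiviral effectors, 5 of 10 were tested, with a median log2 fold change of -0.09 and 0 called by edgeR or DESeq2. DESeq2 gave no adjusted p for RSAD2, so it could not call that gene. By edgeR 0 were higher and 0 lower at an unadjusted p under 0.05, against 8.14% and 6.17% of all genes. SAMD9, which restricts poxviruses, had 339 and 537 counts in MORC2 KO and 362 and 298 in WT. Its second MORC2 KO replicate stood alone above the rest (log2 fold change 0.24, SE 0.15, adjusted p = 0.48 by edgeR). Without MORC2 KO replicate 1 the change was 0.46. RSAD2, which encodes viperin, had 23 and 47 counts in MORC2 KO and 29 and 13 in WT, with overlap. Its log2 fold change of 0.57 (SE 0.42) ran from 0.06 without MORC2 KO replicate 2 to 1.17 without WT replicate 1. The 2 tested OAS genes, OAS3 and OASL, stood at 0.03 (SE 0.11) and 0.00 (SE 0.17). The IFITM genes, which block viral entry at membranes, had a median of -0.01 over 3 genes.

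IFI44 and IFI44L, neighbours on chromosome 1, had few counts and opposite signs. IFI44 had 61 and 83 counts in MORC2 KO and 44 and 51 in WT (log2 fold change 0.43, SE 0.26), and IFI44L had 24 and 24 against 27 and 38 (log2 fold change -0.60, SE 0.36, the lowest of the set). Neither pair of groups overlapped in CPM, and neither change passed (adjusted p = 0.458 and 0.456 by edgeR).

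The highest level among the effectors belonged to an antigen-presentation gene. B2M, the invariant chain of MHC class I, averaged 165 RPKM, above 98.1% of all genes tested, with 155 and 145 CPM in MORC2 KO and 160 CPM in both WT libraries. Both MORC2 KO values were lower, by a log2 fold change of -0.09 (SE 0.06, adjusted p = 0.48 by edgeR). It was -0.16 without MORC2 KO replicate 1 and -0.04 without replicate 2. TAP1, which carries peptides into the endoplasmic reticulum, differed by -0.03 (SE 0.08), with PSMB8-AS1 overlapping 16% of its exonic length. LGALS3BP, a secreted glycoprotein, differed by -0.12 (SE 0.10), and CXCL10, the interferon-induced chemokine, had 12 and 18 counts in MORC2 KO and 10 and 16 in WT.

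**Figure D3:**
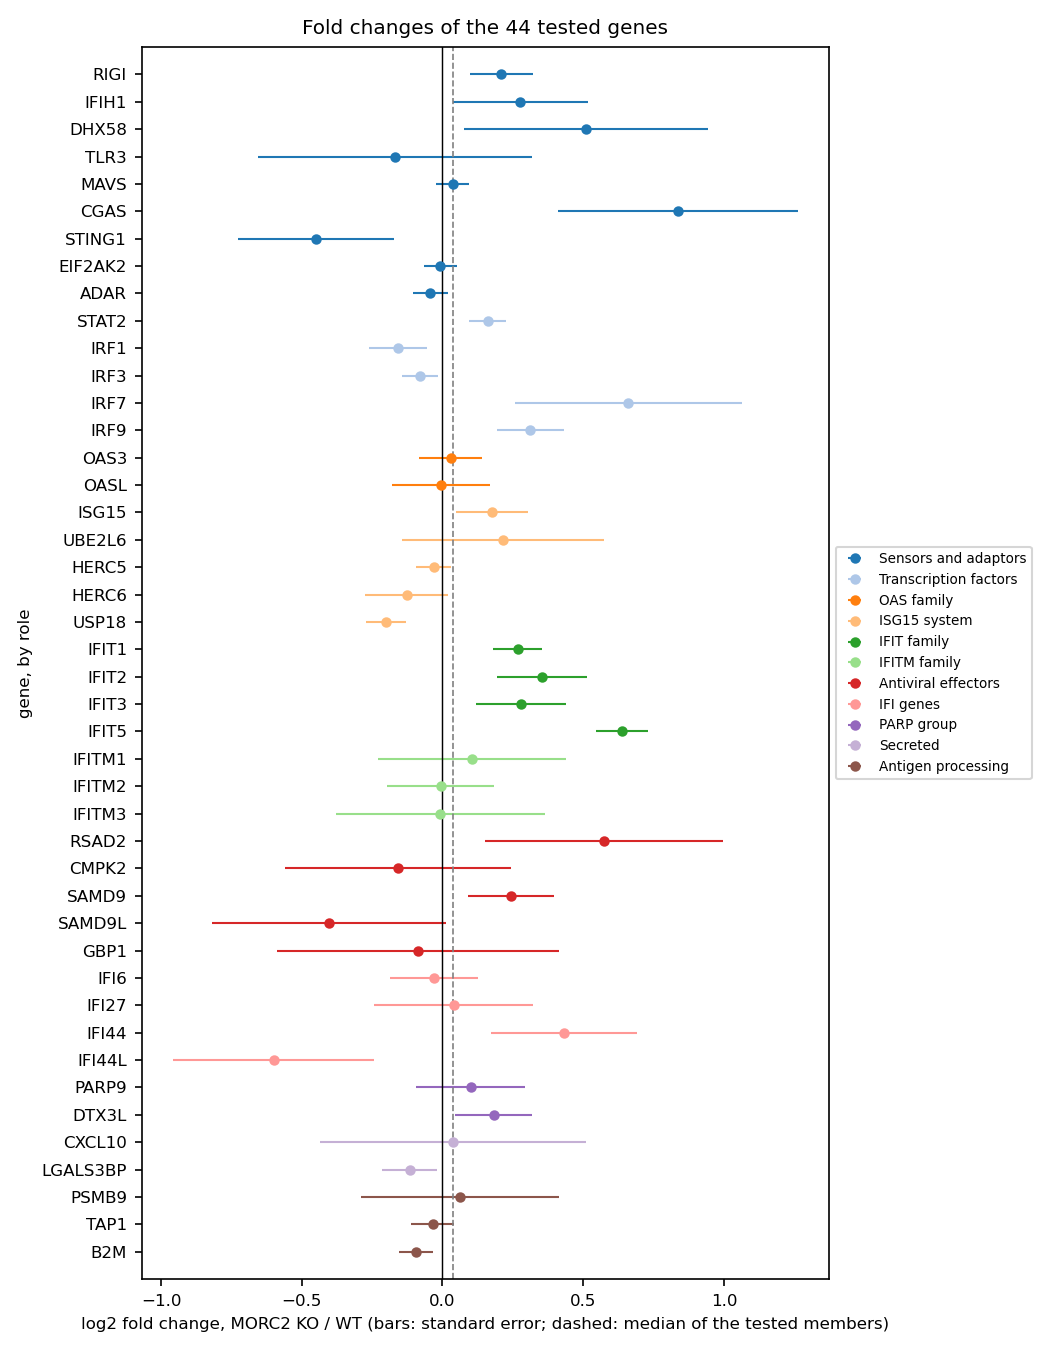
Log2 fold change, MORC2 KO over WT, of the 44 tested genes, grouped and coloured by role. Points are edgeR estimates, bars their standard errors, the solid line marks no change and the dashed line the median of the 44. IFIT5, at 0.64 with a narrow bar, is the 1 gene called, and GBP1 and TLR3, with few counts, have the widest bars (0.50 and 0.49).

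The number of genes whose 2 MORC2 KO values both lay above both WT values was 8 of 44, against 24.1% of all genes tested. Both lay below in 7 of 44, against 23.4% of all genes. The precision varied with depth, from an SE of 0.06 for EIF2AK2 to 0.50 for GBP1 on the log2 scale, as the plot of fold changes shows. Of the 44 genes 24 had a positive log2 fold change, against 51.5% of all genes.

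The 2 MORC2 KO libraries were then set against the WT mean one at a time. Both differences use the same WT libraries, so they are given side by side with no test between them. Replicate 1 lay above the WT mean in 21 of the 44 genes (50.6% of all genes tested) and replicate 2 in 29 (52.5% of all genes). The median difference in log2 CPM was -0.01 in replicate 1 and 0.07 in replicate 2, beside 0.00 and 0.01 over all genes. In the IFIT family the medians were 0.13 and 0.54.

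**Figure D4:**
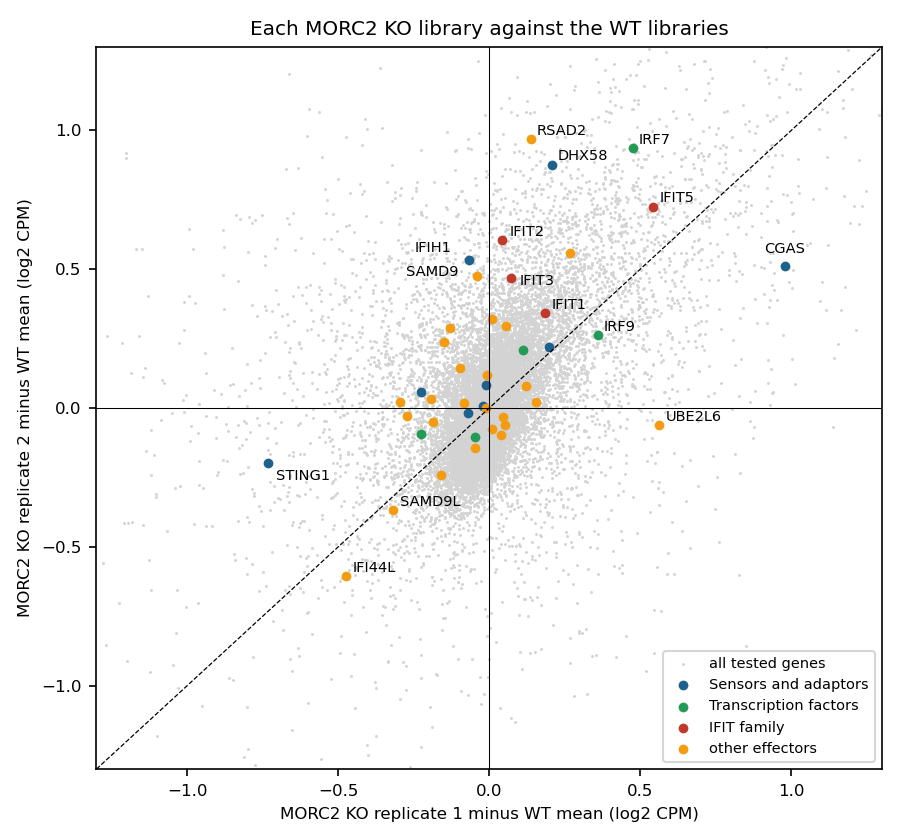
Difference in log2 CPM from the WT mean in MORC2 KO replicate 1 (horizontal axis) and replicate 2 (vertical axis), for the 44 genes coloured by role over all tested genes in grey. The dashed line marks equal values, the WT mean is shared by both axes, and 127 genes lie outside the axis limits. IFIT2, IFIT3, IFIH1 and SAMD9 stand near 0 on the horizontal axis and between 0.47 and 0.60 on the vertical, and IFIT5 stands at 0.54 and 0.73.

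IFIT5 was higher in both MORC2 KO libraries, by 0.54 in replicate 1 and 0.73 in replicate 2. IFIT2 differed by 0.04 and 0.60, IFIT3 by 0.07 and 0.47 and SAMD9 by -0.04 and 0.48 in the same order. IRF9 (0.36 and 0.26) and CGAS (0.98 and 0.51) had the larger difference in replicate 1. The plot of both differences shows these genes by name.

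Replicate 2 exceeded replicate 1 of MORC2 KO in 30 of the 44 genes, against 50.8% of all genes tested. With a mean of at least 100 counts, a limit set after the data were seen, it did so in 19 of 26, against 47.5% of all genes. At that limit replicate 2 lay above the WT mean in 17 of 26 (47.8% of all genes) and replicate 1 in 12 of 26 (48.7%). The genes with the largest difference between the 2 were RSAD2 (0.83), DHX58 (0.67), UBE2L6 (-0.62), IFIH1 (0.60), IFIT2 (0.56) and STING1 (0.53), as replicate 2 minus replicate 1 in log2 CPM. The WT libraries differed by more than that between themselves for RSAD2 (-0.91), DHX58 (-1.07) and UBE2L6 (1.00), and by less for IFIH1 (0.16), IFIT2 (0.18) and STING1 (0.11). A difference over 0.5 between replicates was found in 7 of the 44 genes for MORC2 KO, against 8.13% of all genes, and in 10 of the 44 for WT, against 7.56%.

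The rest of the pathway was read from a separate list. Of 8 interferon genes 0 passed the filter, with at most 6 counts in any library. IFNB1, the first interferon made on sensing, had 5 and 2 counts in MORC2 KO and 6 and 4 in WT, so no difference was detectable at this depth. Among 11 interferon receptor, kinase and feedback genes 0 were called by edgeR or DESeq2. By edgeR 2 were higher and 0 lower at an unadjusted p under 0.05, against 8.14% and 6.17% of all genes. SOCS3, a feedback inhibitor of cytokine receptors, had 29 and 35 counts in MORC2 KO and 14 and 11 in WT, and its log2 fold change of 1.19 (SE 0.38) did not pass (adjusted p = 0.22 by edgeR).

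A further list held 14 genes taken as relays of signals from the sensors, NFKB1, RELA, MYD88 and IRF2 among them. Of the 14, 0 were called by edgeR or DESeq2. At an unadjusted p under 0.05, edgeR gave 2 higher and 0 lower, against 8.14% and 6.17% of all genes. RNF135, the ubiquitin ligase that activates RIG-I, had 857 and 1051 counts in MORC2 KO and 743 and 645 in WT. The groups did not overlap, and the log2 fold change was 0.30 (SE 0.09, unadjusted p = 0.00453, adjusted p = 0.178 by edgeR). Of 10 genes that clear or restrict nucleic acid 9 were tested and 0 called by edgeR or DESeq2. At an unadjusted p under 0.05, edgeR gave 0 higher and 1 lower (SAMHD1), against 8.14% and 6.17% of all genes. The untested gene was TREX1, the main cytosolic DNA exonuclease, whose exons lie wholly within ATRIP and its read-through transcript. Pairs that overlap more than 1 gene were left out in counting, so its 0 counts do not measure its level.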

How the data were processed

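Reads were mapped by the authors to the T2T-CHM13v2.0 genome, and they deposited raw counts per gene, made with featureCounts (Subread 2.0.6) over RefSeq genes without regard to strand. Pairs over more than 1 gene were left out and multi-mapping reads counted. The deposited table also gives each gene's exonic length in bases, used for RPKM. Entrez identifiers gave a symbol for 28763 of 28775 genes. From the counts, edgeR 4.0.16 (R 4.3.3, limma 3.58.1; filterByExpr, TMM, quasi-likelihood F-test in its earlier form, genotype as the only term, all 4 samples) gave log2 fold changes, with SE as the absolute log2 fold change over the square root of F, and Benjamini-Hochberg adjusted p over 16675 genes. Log2 CPM used a prior count of 2. Alternatives used DESeq2 1.42.0 and other scalings, filters and terms, and the script was tested on simulated data.

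The 2 samples per group came from the sample titles. P-values measure only the spread between these samples, with the dispersion moderated over genes. The study's methods describe 2 independent WT replicates but not the step at which they were separated, so part of their spread may be technical. The dispersion gave a biological coefficient of variation of 5.33%. The members and gene lists were chosen with earlier results of these data known. Named genes were all sensors, adaptors and transcription factors, every gene called, the 6 with the lowest p, the 6 with the largest difference between the MORC2 KO libraries and the 6 effectors with the highest RPKM. IFIT3, SAMD9, OAS3, OASL, CXCL10, IFI44, IFI44L, GBP1, PARP9, DTX3L, the neighbours of IFIT5 and the pathway genes outside the set were named after their values were seen.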

Additional observations from a re-analysis of the deposited data

How the results depend on the processing

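IFIT5 was called higher in every fit run. The count of 1 member higher and 0 lower was the same under DESeq2, the newer edgeR form, other scalings and filters, loess offsets, the GC and length terms and an adjusted p threshold of 0.1. Leaving out 1 library gave 1 to 6 members higher and 0 to 2 lower, the highest of both without MORC2 KO replicate 1. Among pathway genes outside the set, calls in both directions likewise appeared without MORC2 KO replicate 1, a fit that called many more of all genes. With no filter on low counts 1 pathway gene outside the set was higher (RNF135), where 463 genes in all were. The median log2 fold change of the members was -0.030 with loess offsets on abundance, and -0.01 to 0.07 when leaving out 1 library.

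With the replicate number as a block, 1 member was higher (IFIT5, 0.64, adjusted p = 1.84e-07 by edgeR), and no call on a member changed. Over all genes the block gave 237 higher and 42 lower, against 98 and 5 without it. The numbers share no stated batch, and deviations of same-numbered samples correlated at -0.124 over genes. The crossed pairing, chosen after seeing the data, gave 3 members higher and 1 lower, 3 and 1 pathway genes outside the set, and 903 and 809 genes in all. Over all genes DESeq2 gave 115 higher and 17 lower, no filter 463 and 182, GC and length terms 191 and 110, a threshold of 0.1 147 and 15, and the fit without MORC2 KO replicate 1 gave 1397 and 2117. The causes were not tested. Genes with few counts, such as CGAS and DHX58, had errors too wide to show a change of the size found for IFIT5.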
